A study of Mus musculus with 12 samples.

Results

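The MHC class II genes Cd74, H2-Aa, H2-Ab1, H2-Eb1, H2-DMa, H2-DMb1, H2-Oa, H2-Ob and Ciita were described in RNA of sorted mouse spleen cells. They were taken by symbol, from probe sets annotated to 1 of these 9 symbols and to no other gene. Of the 9 symbols, 8 had such a probe set, 1 each, among 12980 genes tested, and all 8 lay above the filter on low signals. H2-DMb1 lay on a probe set that it shares with H2-DMb2, so it is not among the 8.

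RNA came from spleens of mice aged 3 months, sorted for the erythroid marker Ter119 and a high level of the transferrin receptor CD71, a gate that holds erythroblasts. The groups, named as labelled, were DKO (labelled Rb;E2f8), E2f8 KO, Rb KO and WT, with 3 arrays each that the labels call biological replicates. E2f8 is a repressor of the E2F family, and Rb is the retinoblastoma protein that binds E2F activators. The sources used here name no allele, Cre driver, strain, MHC haplotype or sex.

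Values are log2 signals, so a difference of 1 is a 2-fold difference, and the array medians lay between 6.22 and 6.35. A gene was called when its adjusted p was under 0.05 in limma, with Benjamini-Hochberg adjustment over all 12980 genes of a comparison. The signals of Rb1 and E2f8 went in part against the labels. Rb1 had 11.98 to 12.23 in the arrays labelled DKO, 11.68 to 11.74 in E2f8 KO, 12.33 to 12.53 in Rb KO and 12.71 to 13.02 in WT, so it was lowest under the E2f8 KO label. E2f8 had 13.09 to 13.17 in DKO, 12.74 to 12.89 in E2f8 KO, 11.68 to 12.52 in Rb KO and 11.70 to 12.28 in WT, so it was highest under both labels that name its loss. Where these probe sets lie relative to any deleted part is not given, so every direction below rests on the labels. Replicate 3 of DKO and of E2f8 KO had Xist signals of 3.99 and 5.22, and the other 10 arrays had 11.30 to 12.18. The Y-linked gene Eif2s3y had 7.82 and 8.17 on these 2 arrays and 2.79 to 3.32 on the other 10. No Rb KO or WT array had this pattern, so the groups were not balanced for it, and its part in the results was not tested. The marker genes of the sort were high on every array: the mean of 13 erythroid genes was 12.92 ± 0.01 in DKO, 12.94 ± 0.08 in E2f8 KO, 12.48 ± 0.36 in Rb KO and 12.66 ± 0.14 in WT (SD, n = 3 each).

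Class II molecules present peptides from endosomes to CD4 T cells, and are made by B cells, dendritic cells and activated macrophages. H2-Aa with H2-Ab1, and the E alpha chain with H2-Eb1, form the A and E molecules at the cell surface. Cd74, the invariant chain, guides new A and E molecules to endosomes and blocks their groove. H2-DM (H2-DMa with H2-DMb1 or H2-DMb2) then exchanges the Cd74 remnant for peptide, and H2-O (H2-Oa with H2-Ob) restrains H2-DM, chiefly in B cells. Ciita is the coactivator that switches on these genes together, by joining the RFX, CREB and NF-Y factors that sit on the X and Y boxes of their promoters. Red cell precursors are not a textbook site of class II presentation.

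The shared promoter layout that Ciita reads is printed for the genes where the letters of both boxes were found. RefSeq promoter windows (GRCm38.p6), from 250 bases before to 50 bases after the start of a gene, were at hand for 6 of the 9 symbols, in 7 windows. Capitals mark first an X-like motif CNNGNAAC and then a Y-like motif TGATTGG, which holds the reverse of CCAAT, and each line reads 5′ to 3′ on the strand of the gene.
H2-Oa: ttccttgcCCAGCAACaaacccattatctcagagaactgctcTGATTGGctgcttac
H2-DMb1: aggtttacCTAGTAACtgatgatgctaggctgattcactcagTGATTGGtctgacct
H2-Ob: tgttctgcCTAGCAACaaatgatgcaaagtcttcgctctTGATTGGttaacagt
H2-Aa: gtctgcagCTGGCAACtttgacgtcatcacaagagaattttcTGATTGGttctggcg
H2-Eb1: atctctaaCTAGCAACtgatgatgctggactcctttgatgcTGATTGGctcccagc

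The stretches lie at chr17:34092292-34092348 (plus strand) for H2-Oa, chr17:34153086-34153142 (plus) for H2-DMb1, chr17:34238807-34238860 (plus) for H2-Ob, chr17:34287859-34287915 (minus) for H2-Aa and chr17:34305765-34305820 (plus) for H2-Eb1. The gap between the motifs was 23 to 26 bases in these 5 genes. Neither window of H2-DMa held the pair. Both strands were searched, and the letters were chosen after these windows were seen. Among 32851 windows of 300 bases, 39.1% held the X-like motif and 7.82% the Y-like motif. The X-like motif followed by the Y-like motif at 10 to 40 bases was in 80 windows, or 0.244%. A match describes letters and shows no binding.

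Cd74, the invariant chain, had log2 signals of 7.70, 8.74 and 9.33 on DKO arrays, 10.71, 11.03 and 11.05 on E2f8 KO arrays, 12.44, 13.64 and 13.54 on Rb KO arrays, and 13.06, 13.57 and 12.75 on WT arrays. Each DKO array was lower than each E2f8 KO array, each E2f8 KO array was lower than each Rb KO or WT array, and Rb KO and WT overlapped.

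The A molecule showed the same order of groups. H2-Aa, its alpha chain, had log2 signals of 7.15, 7.74 and 8.53 on DKO arrays, 9.63, 10.08 and 10.07 on E2f8 KO arrays, 11.77, 12.78 and 12.84 on Rb KO arrays, and 12.42, 13.01 and 12.17 on WT arrays. H2-Ab1, its beta chain, had 6.78, 7.27 and 8.09 on DKO arrays, 9.88, 10.44 and 10.55 on E2f8 KO arrays, 10.76, 12.43 and 12.39 on Rb KO arrays, and 11.76, 13.06 and 11.21 on WT arrays. For both chains DKO did not overlap E2f8 KO, and E2f8 KO overlapped neither Rb KO nor WT. The lowest Rb KO array of H2-Ab1, at 10.76, lay 0.21 above the highest E2f8 KO array.

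The beta chain of the E molecule was the exception. H2-Eb1 had log2 signals of 6.83, 6.74 and 7.13 on DKO arrays, 9.16, 9.59 and 9.67 on E2f8 KO arrays, 7.98, 9.77 and 9.89 on Rb KO arrays, and 8.94, 12.07 and 8.31 on WT arrays. DKO lay below every other array, but E2f8 KO lay within the spread of Rb KO and of WT. WT replicate 2 was 3.45 above the mean of the other WT arrays.

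The peptide exchange and control genes followed Cd74. H2-DMa had log2 signals of 6.56, 7.33 and 7.67 on DKO arrays, 8.33, 8.94 and 8.88 on E2f8 KO arrays, 10.42, 12.13 and 12.07 on Rb KO arrays, and 11.32, 12.01 and 10.65 on WT arrays. The probe set that H2-DMb1 shares with H2-DMb2 read 6.21, 6.18 and 7.16 on DKO arrays, 7.50, 7.90 and 8.05 on E2f8 KO arrays, 9.23, 11.12 and 11.13 on Rb KO arrays, and 10.25, 11.12 and 9.51 on WT arrays. Signals of the 2 genes cannot be told apart there, and it was given no test. In both probe sets DKO lay below E2f8 KO, and E2f8 KO below Rb KO and WT.

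H2-Oa had log2 signals of 5.99, 5.77 and 6.50 on DKO arrays, 7.10, 7.26 and 7.45 on E2f8 KO arrays, 8.42, 10.41 and 10.59 on Rb KO arrays, and 9.39, 10.52 and 8.75 on WT arrays. H2-Ob had 6.31, 6.60 and 6.59 on DKO arrays, 8.06, 8.0 and 8.36 on E2f8 KO arrays, 8.45, 10.64 and 10.85 on Rb KO arrays, and 9.69, 11.50 and 9.53 on WT arrays. Both subunits of H2-O again had no overlap of DKO with E2f8 KO or of E2f8 KO with Rb KO or WT. For H2-Ob the lowest Rb KO array lay 0.08 above the highest E2f8 KO array.

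Ciita, the coactivator, had log2 signals of 6.06, 5.91 and 6.11 on DKO arrays, 6.78, 6.83 and 6.80 on E2f8 KO arrays, 7.71, 10.40 and 10.03 on Rb KO arrays, and 8.72, 9.86 and 8.23 on WT arrays. Its DKO signals lay below the array medians of that group, 6.22 to 6.30, and the deposited table holds no detection call. The range from lowest to highest array was 0.21 in DKO, 0.05 in E2f8 KO and 2.69 in Rb KO.

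**Figure D1:**
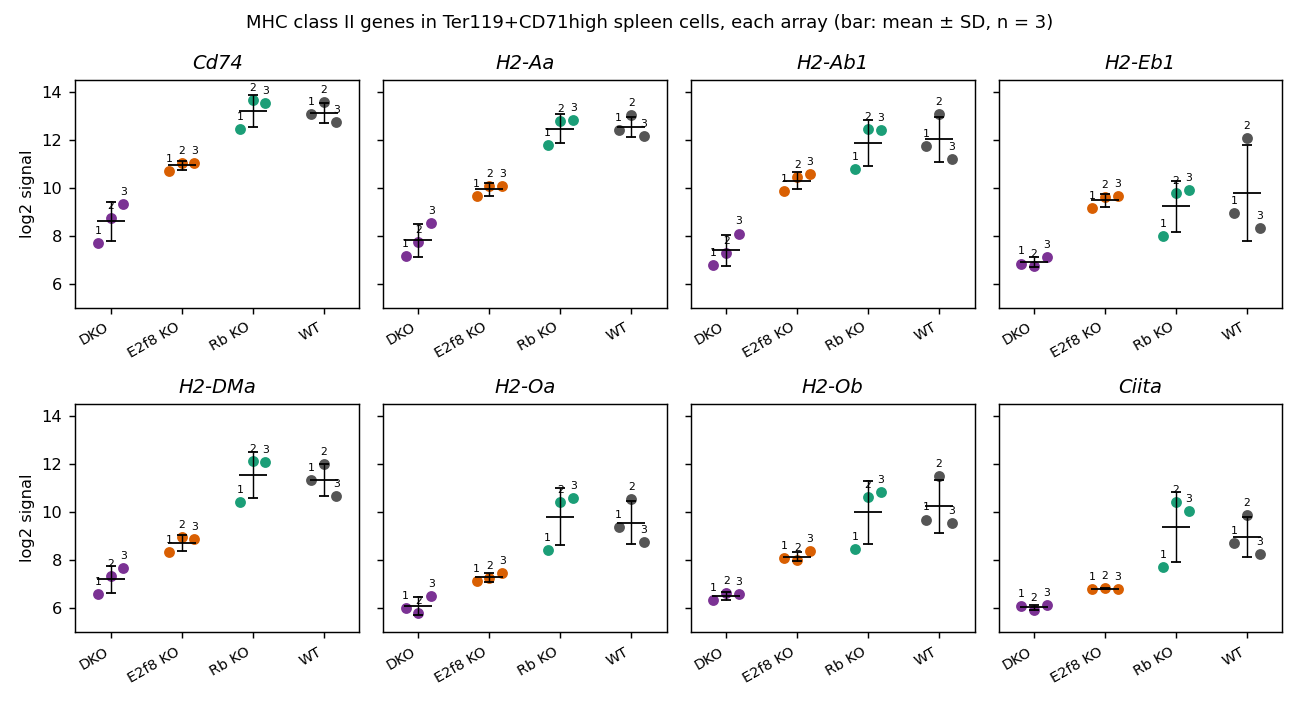
Log2 signal (vertical axis) of each MHC class II gene in DKO, E2f8 KO, Rb KO and WT spleen cells, 1 point per array with its replicate number and a bar for the mean ± SD of 3 arrays. DKO arrays are the lowest in every panel, E2f8 KO arrays lie between DKO and Rb KO in 7 panels, and H2-Eb1 has its E2f8 KO arrays among those of Rb KO and WT.

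In DKO against WT all 8 measured class II genes fell, where 38.2% of all genes were called and 17.6% were called lower. H2-Aa fell by 4.73 ± 0.35 on the log2 scale (26.5-fold, SE, limma adjusted p = 3.17e-06), H2-Ab1 fell by 4.63 ± 0.51 (24.8-fold, adjusted p = 4.15e-05) and Cd74 fell by 4.54 ± 0.39 (23.3-fold, adjusted p = 6.99e-06). H2-DMa fell by 4.14 ± 0.45 (17.6-fold), H2-Ob fell by 3.74 ± 0.58 (13.3-fold) and H2-Oa fell by 3.47 ± 0.52 (11-fold), with limma adjusted p of 4e-05, 0.000344 and 0.000281. H2-Eb1 fell by 2.87 ± 0.76 (7.32-fold, limma adjusted p = 0.00914). Without WT replicate 2 its change was −1.72 and without WT replicate 3 it was −3.60, and that of H2-Ob was −3.11 without WT replicate 2, all still called. Ciita had a change of −2.91 ± 0.56 (limma adjusted p = 0.00134). Because its DKO signals lie below the array medians, where the table does not tell signal from background, that value is read as a lower limit on its fall, and the same holds for its other comparisons with DKO. H2-Oa signals on DKO replicates 1 and 2, at 5.99 and 5.77, also lay below those medians, so its falls in DKO are read in the same way. The median change of the 8 genes was −3.94, against 0.00 over all genes. All 8 had every DKO array below every WT array, as did 21.4% of all genes. In these bulk samples fewer cells of a type and less RNA per cell cannot be told apart.

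In E2f8 KO against WT 7 of the 8 genes fell, where 26.1% of all genes were called and 14.2% were called lower. H2-DMa fell by 2.61 ± 0.45 (6.10-fold, limma adjusted p = 0.00237), H2-Aa fell by 2.61 ± 0.35 (6.10-fold, adjusted p = 0.000685) and Cd74 fell by 2.20 ± 0.39 (4.59-fold, adjusted p = 0.00242). Of the H2-O genes, H2-Oa fell by 2.28 ± 0.52 (4.87-fold, limma adjusted p = 0.0079) and H2-Ob fell by 2.10 ± 0.58 (4.28-fold, adjusted p = 0.0186). Ciita fell by 2.13 ± 0.56 (4.39-fold, limma adjusted p = 0.0148) and H2-Ab1 fell by 1.72 ± 0.51 (3.29-fold, adjusted p = 0.0263). H2-Eb1 had a change of −0.30 ± 0.76 (95% interval −1.93 to 1.33, limma adjusted p = 0.796), which leaves room for a fall as large as that of H2-Ab1. The median change was −2.17, against 0.06 over all genes, and 7 of the 8 genes had every E2f8 KO array below every WT array, as did 23.5% of all genes.

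Some of these calls rested on single arrays. Without WT replicate 2, the highest WT array of all 8 genes, 4 of 8 were called in E2f8 KO against WT, with 1531 in place of 3388 genes called in all. Ciita (−1.67, limma adjusted p = 0.074), H2-Ob (−1.47, adjusted p = 0.0881) and H2-Ab1 (−1.19, adjusted p = 0.126) were then not called, and H2-Eb1 had a change of 0.85. Without E2f8 KO replicate 1 or 2, H2-Ab1 (adjusted p = 0.0976 and 0.0591) and H2-Ob (adjusted p = 0.0585 and 0.0591) were not called in limma. Without E2f8 KO replicate 3, H2-Ab1 had an adjusted p of 0.0503 in limma. Cd74, H2-Aa, H2-DMa and H2-Oa kept the call in each of the 21 other settings tried.

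In Rb KO against WT none of the 8 genes was called by limma, and none had an unadjusted p under 0.05. Of all genes 1, or 0.0077%, was called and 4.6% had an unadjusted p under 0.05. The changes ran between −0.56 (H2-Eb1, 95% interval −2.19 to 1.07) and 0.44 (Ciita, interval −0.76 to 1.64), with a median of 0.01. No gene of the 8 had every Rb KO array below every WT array, as 4.03% of all genes had. The narrowest intervals were those of H2-Aa, −0.84 to 0.69, and Cd74, −0.75 to 0.92, so differences within these bounds are not excluded. Larger differences could also go without a call. The macrophage gene Adgre1 had a change of −1.21 ± 0.22 here and was not called (limma adjusted p = 0.105). Rb KO replicate 1 stood apart in this group. Its differences from the mean of the other Rb KO arrays ran between −2.50 (Ciita) and −1.04 (H2-Aa), with a median of −1.77.

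**Figure D2:**
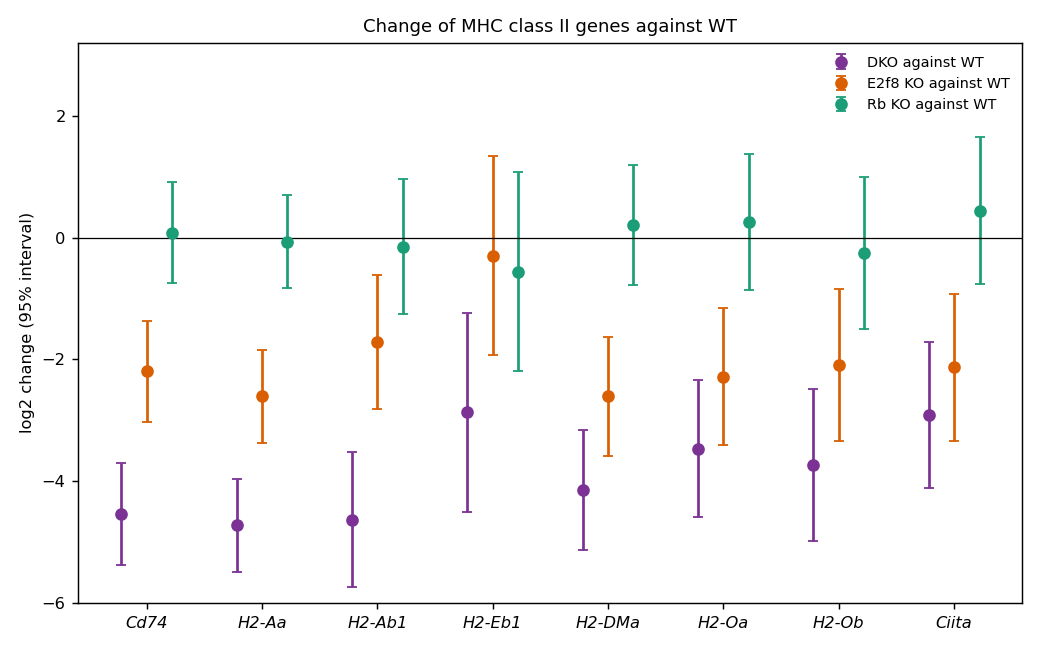
Log2 change against WT (vertical axis) of each MHC class II gene in DKO, E2f8 KO and Rb KO, points with 95% intervals of the limma fit over 12 arrays. DKO points run from −4.73 to −2.87, E2f8 KO points from −2.61 to −0.30, and the Rb KO intervals all span 0.

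In DKO against Rb KO all 8 genes fell, with changes between −4.66 (H2-Aa) and −2.31 (H2-Eb1, limma adjusted p = 0.0286) and a median of −4.03, where 37.1% of all genes were called and 17.6% called lower. All 8 had every DKO array below every Rb KO array, as did 20.4% of all genes. The call of H2-Eb1 was lost without any 1 of the DKO arrays or without Rb KO replicate 2 or 3 (limma adjusted p = 0.0504 to 0.105).

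In DKO against E2f8 KO 3 of the 8 genes fell, where 2.37% of all genes were called and 0.647% were called lower. H2-Ab1 fell by 2.91 ± 0.51 (7.53-fold, limma adjusted p = 0.0112), Cd74 fell by 2.34 ± 0.39 (5.06-fold, adjusted p = 0.00782) and H2-Aa fell by 2.12 ± 0.35 (4.34-fold, adjusted p = 0.00827), which are the invariant chain and both chains of the A molecule. The other 5 genes had changes of −2.57 (H2-Eb1, limma adjusted p = 0.1), −1.64 (H2-Ob, adjusted p = 0.161), −1.53 (H2-DMa, adjusted p = 0.102), −1.18 (H2-Oa, adjusted p = 0.255) and −0.78 (Ciita, adjusted p = 0.473). All 8 had every DKO array below every E2f8 KO array, as did 17.0% of all genes. The number called was 6 without Rb KO replicate 1, when H2-Eb1, H2-Ob and H2-DMa were added and 712 in place of 308 genes were called in all. It was 4 without WT replicate 2, with 275 genes in all. It was 2 without DKO replicate 2 or E2f8 KO replicate 2 or 3, with 90, 94 and 106 genes in all, when H2-Ab1 had an adjusted p of 0.0566 to 0.0589 in limma. Neither Rb KO nor WT arrays enter this difference except through the shared estimate of the spread. In a fit of DKO and E2f8 KO arrays alone 8 of the 8 were called, with 1262 of all genes.

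In E2f8 KO against Rb KO 7 of the 8 genes fell, where 27.7% of all genes were called and 15.6% called lower. The changes ran between −2.82 (H2-DMa) and 0.26 (H2-Eb1), with a median of −2.41. The arrays did not overlap for 7 genes, all but H2-Eb1, as for 22.8% of all genes in that direction. H2-Ab1 and H2-Ob lost the call without any 1 of the E2f8 KO arrays or without Rb KO replicate 2 or 3, with limma adjusted p of 0.0623 to 0.146 for H2-Ab1 and 0.06 to 0.135 for H2-Ob. Without WT replicate 1 H2-Ab1 had an adjusted p of 0.052 in limma. Without Rb KO replicate 1 the changes against Rb KO were larger: that of Ciita was −3.41 in E2f8 KO, in place of −2.58, and −4.19 in DKO, in place of −3.35.

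The interaction asks whether the DKO departs from the sum of both single labels, as DKO minus Rb KO less E2f8 KO minus WT. None of the 8 genes was called by limma, where 0.077% of all genes were called, and 4 had an unadjusted p under 0.05 (740 genes, 5.7%, over all). The values ran between −2.76 (H2-Ab1, limma adjusted p = 0.410) and −1.22 (Ciita, adjusted p = 0.878). Cd74 had −2.42 ± 0.54 (95% interval −3.60 to −1.24, limma adjusted p = 0.252). Without Rb KO replicate 1, Cd74 (−2.81, limma adjusted p = 0.0186), H2-Ab1 (−3.31, adjusted p = 0.0302) and H2-Aa (−2.39, adjusted p = 0.0307) were called, with 49 in place of 10 genes called in all.

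The 8 genes did not move in full step. After each gene was centred on its own mean over the 12 arrays, H2-Eb1 was set against the mean of the other 7. It lay above them by 0.90, 0.41 and 0.30 in DKO and by 1.23, 1.37 and 1.36 in E2f8 KO. It lay below them in Rb KO, at −1.30, −1.29 and −1.15, and was split in WT, at −1.25, 0.86 and −1.44. WT replicate 2 was therefore the only array of Rb KO and WT on the side of E2f8 KO. The range over arrays was 2.81 for H2-Eb1, and between 1.07 (H2-Ob) and 1.94 (Ciita) for the other genes. The low DKO signals of Ciita enter this mean, and no detection call is given for them. These are descriptions, since the mean and the gene share arrays.

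**Figure D3:**
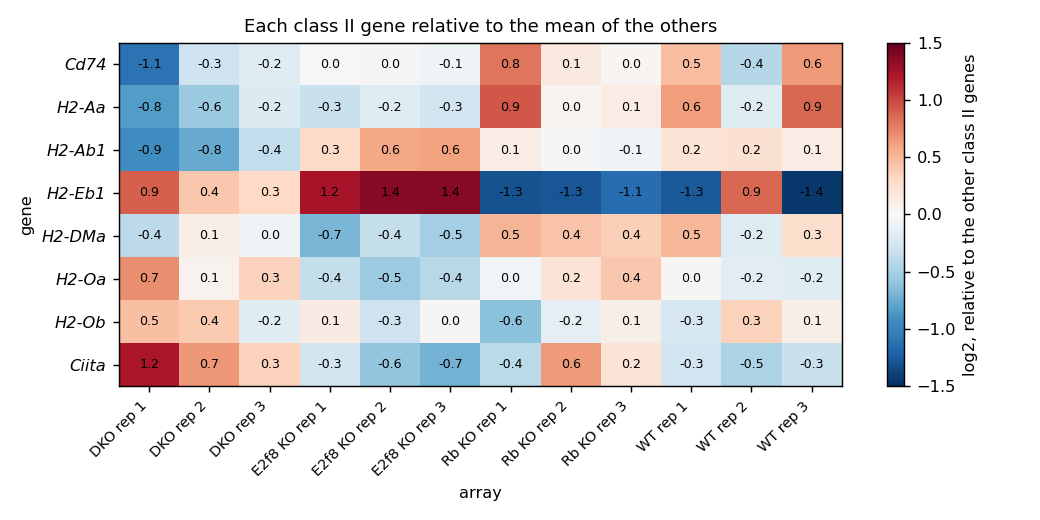
Log2 signal of each MHC class II gene relative to the mean of the other 7 after centring each gene over the 12 arrays (colour and printed value), by array. H2-Eb1 is positive in DKO, E2f8 KO and WT replicate 2 and negative in Rb KO and the other WT arrays.

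H2-Ea and H2-Eb2, neighbours of H2-Eb1 in the E subregion, were measured too. H2-Ea encodes the E alpha chain in some strains and is a transcribed pseudogene in the RefSeq annotation used. It had log2 signals of 6.53, 5.85 and 6.38 on DKO arrays, 6.06, 6.03 and 6.11 on E2f8 KO arrays, 7.48, 9.63 and 9.94 on Rb KO arrays, and 8.71, 8.62 and 8.68 on WT arrays. WT replicate 2, the highest for H2-Eb1, was the lowest WT array for H2-Ea, and the WT arrays spanned 0.09. H2-Ea fell by 2.42 ± 0.46 in DKO against WT (limma adjusted p = 0.00137) and by 2.60 ± 0.46 in E2f8 KO against WT (adjusted p = 0.00265), and its change in DKO against E2f8 KO was 0.19 (adjusted p = 0.850). Its E2f8 KO signals lay below the array medians of that group, 6.31 to 6.34, so the last comparison could hardly show a further fall. Its fall in E2f8 KO against WT is therefore read as a lower limit. In DKO, replicate 2 of H2-Ea lay below the array medians of that group, 6.22 to 6.30. Replicates 1 and 3 lay just above them, so its fall in DKO may be a lower limit too. H2-Eb2, another E beta gene, had 5.57, 5.63 and 5.73 on DKO arrays, 6.70, 6.69 and 7.23 on E2f8 KO arrays, 7.20, 9.06 and 9.21 on Rb KO arrays, and 7.97, 9.87 and 7.82 on WT arrays. It fell by 2.91 ± 0.54 in DKO against WT (limma adjusted p = 0.00111) and by 1.68 ± 0.54 in E2f8 KO against WT (adjusted p = 0.0364), and H2-Eb2 was, like H2-Eb1, highest in WT replicate 2. Its DKO signals lay below the array medians of that group, so its fall in DKO is a lower limit.

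The factors that hold Ciita on class II promoters moved in both directions. Of 7 measured, 2 fell and 4 rose in DKO against WT, and 1 fell and 3 rose in E2f8 KO against WT. Over all genes, 17.6% were called lower and 20.6% higher in DKO, and 14.2% and 11.9% in E2f8 KO. The subunits of NF-Y, which binds the Y box, rose: Nfyb by 1.83 ± 0.29 in DKO (limma adjusted p = 0.000414) and 1.60 ± 0.29 in E2f8 KO (adjusted p = 0.00291), and Nfyc by 1.09 ± 0.17 and 0.91 ± 0.17 (adjusted p = 0.00039 and 0.00335). Nfya rose by 1.0 ± 0.20 in DKO (limma adjusted p = 0.00171), and had a change of 0.39 in E2f8 KO (adjusted p = 0.175). The RFX complex, which binds the X box, was divided. Rfxank fell by 0.99 ± 0.16 in DKO (limma adjusted p = 0.000394) and had a change of −0.37 in E2f8 KO (adjusted p = 0.0965). Rfx5 fell by 1.21 ± 0.40 and 1.29 ± 0.40 (limma adjusted p = 0.0294 and 0.0319), while Rfxap rose by 0.80 ± 0.15 and 0.65 ± 0.15 (adjusted p = 0.00104 and 0.00806), both named after their values were seen. Creb1 had changes of 0.08 and 0.13, with limma adjusted p of 0.757 and 0.553. In Rb KO against WT none of the 7 was called by limma, or had an unadjusted p under 0.05.

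Of 11 genes of peptide loading and turnover, 9 fell in DKO and 8 in E2f8 KO against WT, with medians of −0.93 and −0.67. Beside them, 17.6% of all genes were called lower in DKO and 14.2% in E2f8 KO. Ctss, the protease that removes most of Cd74 in B cells and dendritic cells, fell by 2.85 ± 0.37 in DKO (limma adjusted p = 0.000114) and fell by 1.88 ± 0.37 in E2f8 KO (adjusted p = 0.0041). Lgmn, an endosomal protease abundant in macrophages, fell by 2.86 ± 0.17 and 1.14 ± 0.17 (limma adjusted p = 1.03e-06 and 0.00115), and fell by 1.72 ± 0.17 in DKO against E2f8 KO (adjusted p = 0.000195). Marchf8, a ubiquitin ligase of class II and the transferrin receptor, fell by 0.93 ± 0.15 and 0.51 ± 0.15 (limma adjusted p = 0.000448 and 0.0237). The cathepsin Ctsd had changes of −0.21 and −0.01 and the thiol reductase Ifi30 of −0.51 and −0.13, none of them called.

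All 5 costimulatory genes fell in DKO and in E2f8 KO against WT, where 17.6% and 14.2% of all genes were called lower. The medians were −2.31 and −1.85. Cd86, a ligand of CD28 on T cells, fell by 2.58 ± 0.30 in DKO (limma adjusted p = 5.89e-05) and 1.85 ± 0.30 in E2f8 KO (adjusted p = 0.0017), and Cd40, the receptor for T cell help, had changes of −2.09 ± 0.54 and −1.66 ± 0.54 (adjusted p = 0.00815 and 0.0374). In DKO against E2f8 KO the median was −0.43, none of the 5 was called by limma, and 1 had an unadjusted p under 0.05, as had 2349 of 12980 genes over all. The list averaged 6.01 in DKO, below the array medians of that group, 6.22 to 6.30, so falls of its low genes in DKO are lower limits.

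Class I molecules, which most nucleated cells carry, present peptides from the cytosol. Of 16 genes listed for class I presentation 13 were measured, and H2-K1, H2-D1 and H2-T23 were not among them. Of the 13, 7 fell and 1 rose in DKO and 7 fell and 2 rose in E2f8 KO against WT. Over all genes, 17.6% were called lower and 20.6% higher in DKO, and 14.2% and 11.9% in E2f8 KO. The medians of the 13 genes were −0.59 and −0.60. B2m, the light chain of class I, fell by 0.70 ± 0.08 in DKO (limma adjusted p = 4.17e-05) and 0.33 ± 0.08 in E2f8 KO (adjusted p = 0.00969). Calr, a chaperone of the endoplasmic reticulum, rose by 0.49 ± 0.12 and 0.55 ± 0.12 (limma adjusted p = 0.00528 and 0.00597).

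The class II region of chromosome 17 let neighbours be compared. In the RefSeq order 14 genes run from H2-Oa to H2-Eb1. They are the 6 measured class II genes there and 8 others: H2-DMb1 and H2-DMb2, which share a probe set, the noncoding Gm20506, which was not measured, and 5 measured genes outside class II. Of these 5, 3 fell and 1 rose in DKO against WT, with a median of −0.59, and 4 fell in E2f8 KO against WT. Over all genes, 17.6% were called lower and 20.6% higher in DKO, and 14.2% lower and 11.9% higher in E2f8 KO. The 1 rise among 5 in DKO is thus near the share of all genes. Brd2, a bromodomain protein gene that lies between H2-Oa and H2-DMa, rose by 1.51 ± 0.19 in DKO (limma adjusted p = 9.09e-05) and 1.49 ± 0.19 in E2f8 KO (adjusted p = 0.00047). The immunoproteasome genes Psmb8 and Psmb9 fell by 2.01 ± 0.30 and 1.40 ± 0.24 in DKO (limma adjusted p = 0.000263 and 0.000657). The peptide transporter gene Tap1 had a change of −0.25 ± 0.23 in DKO (limma adjusted p = 0.432) and fell by 1.12 ± 0.23 in E2f8 KO (adjusted p = 0.00487). Each of the 6 class II genes had a larger fall in DKO than any of the 5 neighbours, a difference given no test. For H2-Eb1 the size of the fall depended on WT replicate 2: without it the change was −1.72, a smaller fall than that of Psmb8 with all arrays. The change of Psmb8 without that array is not given here, so their order on the same arrays is not known.

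**Figure D4:**
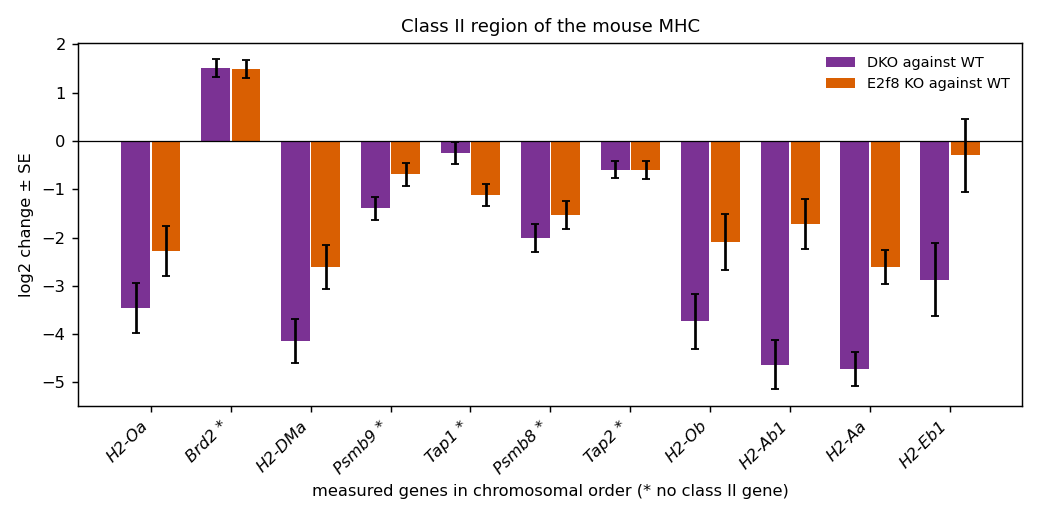
Log2 change ± SE (vertical axis, limma) of measured genes in their order along the class II region of mouse chromosome 17, for DKO against WT and E2f8 KO against WT. Class II genes fell by 2.87 to 4.73 in DKO, while Brd2 rose by 1.51 and Tap1 had a change of −0.25.

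Marker lists of other spleen cells moved beside the class II genes, and their part in the result was not tested. All 17 measured B cell genes of 18 listed fell in DKO and in E2f8 KO against WT. Of all genes, 17.6% and 14.2% were called lower there. The B cell genes had medians of −4.30 and −3.34. Their mean log2 signal was 6.56 ± 0.50 in DKO (6.16 to 7.12 over arrays), 7.51 ± 0.18 in E2f8 KO (7.32 to 7.68), 10.94 ± 1.34 in Rb KO (9.39 to 11.77) and 10.71 ± 0.74 in WT (10.04 to 11.50). The mean of the 8 class II genes was 7.06 ± 0.41 in DKO (6.67 to 7.49), 8.94 ± 0.21 in E2f8 KO (8.71 to 9.10), 10.93 ± 1.03 in Rb KO (9.74 to 11.53) and 10.94 ± 0.91 in WT (10.20 to 11.95). In DKO against E2f8 KO the B cell median was −0.95, with none of 17 genes called by limma. Of the 17, 6 had an unadjusted p under 0.05 in limma, as had 2349 of 12980 genes over all. The class II median was −1.88, with 3 of 8 called, where 0.647% of all genes were called lower. Ms4a1 (6.21) and other B cell genes had DKO means below the array medians of that group, 6.22 to 6.30. Falls of such genes in DKO are read as lower limits, and the difference of the medians was not tested. Cd79b, a signalling chain of the B cell receptor, fell by 4.71 ± 0.46 in DKO against WT (limma adjusted p = 1.98e-05) and had a change of −1.34 ± 0.46 in DKO against E2f8 KO (adjusted p = 0.153). Ms4a1, the CD20 gene, fell by 4.92 ± 0.51 in DKO against WT (limma adjusted p = 2.83e-05) and had a change of −1.11 ± 0.51 in DKO against E2f8 KO (adjusted p = 0.271).

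Of 15 measured macrophage genes of 16 listed, 15 fell in DKO and 13 in E2f8 KO against WT. Of all genes, 17.6% and 14.2% were called lower there. The macrophage genes had medians of −2.51 and −1.49. Their mean was 7.63 ± 0.20 in DKO, 8.59 ± 0.07 in E2f8 KO, 8.95 ± 0.14 in Rb KO and 9.89 ± 0.39 in WT. In DKO against E2f8 KO 5 of the 15 fell, with a median of −0.95, where 0.647% of all genes were called lower. Adgre1, the F4/80 antigen, fell by 3.33 ± 0.22 in DKO against WT (limma adjusted p = 1.92e-06) and fell by 1.75 ± 0.22 in DKO against E2f8 KO (adjusted p = 0.0014). Vcam1, which erythroblastic island macrophages use to hold erythroblasts, fell by 1.34 ± 0.22 in DKO against E2f8 KO (limma adjusted p = 0.00757). In Rb KO against WT, where the class II median was 0.01, the macrophage median was −0.95, with none of 15 genes called by limma and 14 at an unadjusted p under 0.05.

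The 9 measured T and NK cell genes of 14 listed all fell in DKO and in E2f8 KO against WT, with medians of −2.15 and −1.90. Of 11 measured dendritic cell genes of 14 listed, 8 fell in DKO and 5 in E2f8 KO against WT, with medians of −1.10 and −0.81. Beside both lists, 17.6% of all genes were called lower in DKO and 14.2% in E2f8 KO. The integrin gene Itgax (CD11c) fell by 2.46 ± 0.27 and 1.76 ± 0.27 (limma adjusted p = 4.23e-05 and 0.00129), and the chemokine receptor gene Ccr7 had changes of −3.67 ± 0.49 and −2.94 ± 0.49 (adjusted p = 0.000126 and 0.00178). Other dendritic cell genes did not follow. Zbtb46 had changes of −0.22 and 0.20 and Batf3 of −0.23 and 0.02, none of them called, and both were named after their values were seen. In DKO against E2f8 KO the medians were −0.40 and −0.34, with none called by limma on either list, and 2 T and NK cell and 4 dendritic cell genes at an unadjusted p under 0.05. Over all genes 2349 of 12980 had such a p. The T and NK cell list averaged 5.84 in DKO and the dendritic cell list 6.14, below the array medians of that group, 6.22 to 6.30. Falls of their low genes in DKO are therefore lower limits. Granulocyte genes moved the other way: of 12 measured and 14 listed, 8 rose in DKO and 8 in E2f8 KO against WT. Of all genes, 20.6% and 11.9% were called higher there. The granulocyte medians were 1.81 and 1.83. DKO arrays ran between 7.10 and 10.42 in the mean of that list. The 13 measured erythroid genes of 18 listed had medians of 0.32 in DKO and 0.28 in E2f8 KO against WT. In DKO 3 were called higher and 1 lower, and in E2f8 KO 2 higher and 1 lower, beside the same shares of all genes.

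**Figure D5:**
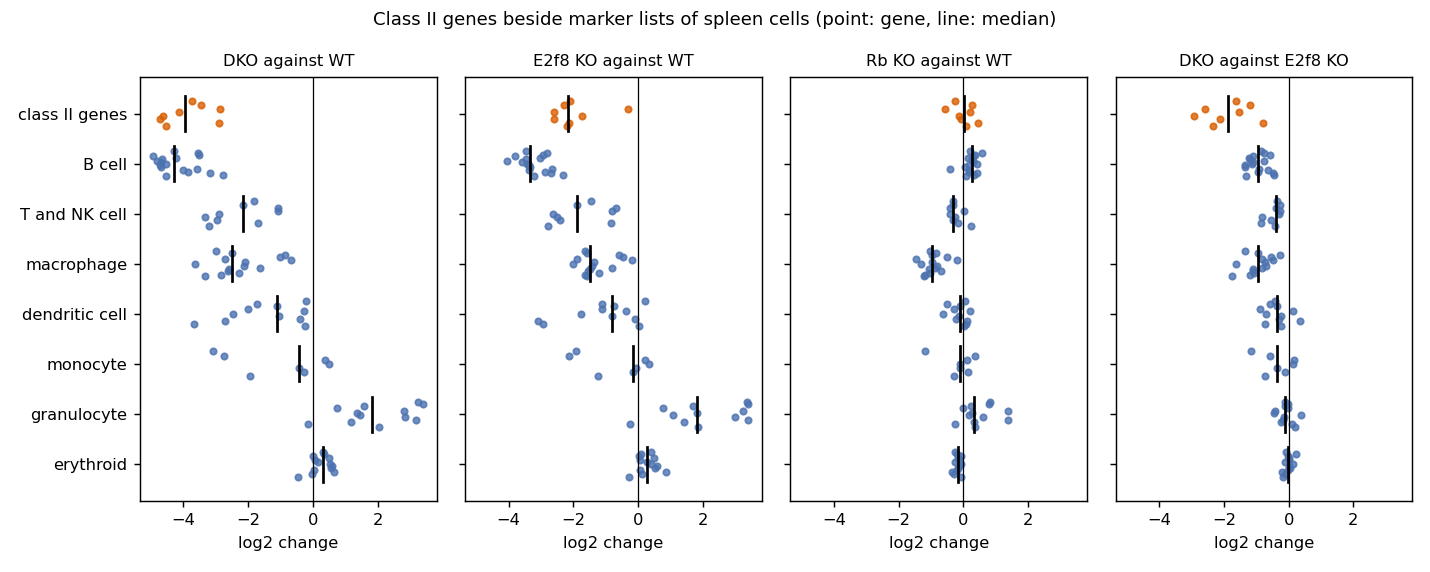
Log2 change (horizontal axis) of the MHC class II genes and of marker genes of spleen cells in 4 comparisons, 1 point per gene with a line at the median. In DKO against WT the class II median of −3.94 lies between the B cell (−4.30) and macrophage (−2.51) medians, and in DKO against E2f8 KO the class II median of −1.88 lies below those of the other lists. Some marker genes lie below the array medians in DKO, where falls are lower limits, and the difference of the medians was not tested.

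Rb KO replicate 1 was low in more than class II genes. Relative to the mean of the other Rb KO arrays its B cell list mean was −2.32, its T and NK cell mean −1.15, its dendritic cell mean −0.72, its macrophage mean −0.05 and its erythroid mean 0.55. The class II genes of that array had a median of −1.77.

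The genes whose profile was most like that of class II were sought among 12972 other genes. Likeness was the root mean square distance over the 12 arrays to the centred mean of Cd74, H2-Aa, H2-Ab1 and H2-Eb1, a description whose points share arrays and depth of signal. The 10 nearest were Igkv10-96, Gm2a, Dnase1l3, Igha, Pld4, Unc93b1, Cyria, H2-Eb2, Shisa5 and Themis2. Their distances ran between 0.439 (Igkv10-96, Pearson r = 0.97 over 12 arrays) and 0.626 (Themis2, r = 0.94). Igkv10-96 and Igha are immunoglobulin light and heavy chain genes, and Unc93b1 escorts Toll-like receptors to endosomes. Igkv10-96 averaged 7.96 ± 1.05 in DKO, 10.40 ± 0.30 in E2f8 KO, 11.52 ± 1.18 in Rb KO and 11.54 ± 0.43 in WT (SD, n = 3 each). By this measure Ctss had rank 11 and the B cell gene Ly86 rank 20. The median rank was 131 for the B cell list, with 7 of 17 genes among the first 100. It was 302 for costimulation, 433 for macrophage genes, 524 for T and NK cell genes, 1121 for dendritic cell genes and 9899 for erythroid genes.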

How the data were processed

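The values, 1 log2 signal per probe set and array on 12 single-channel arrays, were used as deposited (1.0678 to 14.8423). The log2 scale was inferred from their range. MAS5, with no version, made them per the submitters' processing notes, and the sources used here do not give the normalization. Of 35557 probe sets, 21789 had 1 symbol. The lowest 40% by mean signal (14223, under 5.84) and those with several or no symbols were left out, and the probe set of highest mean stood for a gene.

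All arrays entered 1 fit in limma 3.58.1 (R 4.3.3), with 1 coefficient per label, 8 residual degrees of freedom and empirical Bayes variances with a mean trend, checked on simulated data. Tests were two-sided, with Benjamini-Hochberg adjustment within each comparison. With 3 arrays per group, their number limits the precision. Every class II gene was named, with at most 4 genes of highest WT signal and 2 of smallest p in DKO against WT per list, the 10 genes of nearest profile, and the neighbours on chromosome 17. The class II genes and the lists were chosen with earlier results of these data known, and lists were given no set test. Alternatives were other filters, quantile normalization, centring, probe set means, no trend, weights for arrays, a fit of the compared groups alone, a block for the replicate number, and leaving out each array in turn.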

Additional observations from a re-analysis of the deposited data

How the results depend on the processing

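All 8 class II genes were called lower in DKO against WT in each of 21 other settings, and none in Rb KO against WT in any. With array weights, whose iteration stopped before it converged, 7 of 8 were called in DKO against E2f8 KO and 1 in the interaction, and in a fit of only the groups compared 8 were called in DKO against E2f8 KO. Array weights gave a change of −0.12 for H2-Eb1 in E2f8 KO against Rb KO, and called H2-Eb1 lower in E2f8 KO against WT (−1.68, limma adjusted p = 0.0176). Over all genes, array weights called 6649 in E2f8 KO against WT, 101 in Rb KO against WT, 2683 in DKO against E2f8 KO, 5886 in E2f8 KO against Rb KO and 59 in the interaction. Only the groups compared gave 0 in Rb KO against WT (597 at an unadjusted p under 0.05 in limma with all groups) and 1262 in DKO against E2f8 KO, quantile normalization gave 14 in Rb KO against WT, and removing the lowest 60% gave 6 in the interaction. The causes were not tested.

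With 1 array left out in turn, the class II genes called numbered 4 to 7 in E2f8 KO against WT, 5 to 7 in E2f8 KO against Rb KO, 7 to 8 in DKO against Rb KO, 2 to 6 in DKO against E2f8 KO and 0 to 3 in the interaction. All genes called numbered 1531 to 4384 in E2f8 KO against WT, 1 to 140 in Rb KO against WT, 79 to 712 in DKO against E2f8 KO, 1903 to 5023 in E2f8 KO against Rb KO and 2 to 49 in the interaction. H2-Eb1 ran between −1.03 and 0.85 in E2f8 KO against WT, and between −0.36 and 0.60 in E2f8 KO against Rb KO. In Rb KO against WT the changes ran between −0.14 and 0.47 for Cd74, −0.0686 and 1.28 for Ciita, −0.26 and 0.27 for H2-Aa, −0.55 and 0.40 for H2-Ab1, −0.13 and 0.77 for H2-DMa, −1.29 and 0.59 for H2-Eb1, −0.15 and 0.94 for H2-Oa, and −0.69 and 0.51 for H2-Ob.

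Whether the replicate numbers pair the arrays is not known, since the labels only call them biological replicates. Deviations from group means of same-numbered arrays correlated at −0.379 to 0.57 over 18 pairs, 7 of them above 0.1. The 36 pairs of different number correlated at −0.696 to 0.606, and 13 of them were above 0.1. Deviations within so small a group depend on each other, so these correlations cannot decide whether the replicate numbers pair the arrays. With the number as a block 4 of 8 class II genes were called in DKO against E2f8 KO (H2-DMa was added, limma adjusted p = 0.0498), with 248 in place of 308 genes in all, and the block left the number at 8 in both other DKO comparisons, 7 in both other E2f8 KO comparisons and 0 in the rest.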

Other observations

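Of 8 measured plasma cell genes, 4 fell in DKO and 2 in E2f8 KO against WT, where 17.6% and 14.2% of all genes were called lower. Jchain, which joins the units of IgA and IgM, averaged 6.59 ± 0.91 in DKO, 9.83 ± 0.24 in E2f8 KO, 9.01 ± 0.79 in Rb KO and 9.70 ± 0.30 in WT (SD, n = 3 each). It fell by 3.24 ± 0.43 in DKO against E2f8 KO (limma adjusted p = 0.00193), and had a change of 0.14 ± 0.43 in E2f8 KO against WT (adjusted p = 0.835). Irf4, a transcription factor of activated B and plasma cells, fell by 3.10 ± 0.52 in DKO and had −2.83 ± 0.52 in E2f8 KO against WT (limma adjusted p = 0.000561 and 0.00292), and had a change of −0.28 in DKO against E2f8 KO (adjusted p = 0.794). Of 7 measured monocyte genes of 8 listed, 4 fell in DKO and 3 in E2f8 KO against WT, beside the same shares of all genes. Treml4, a receptor of spleen macrophages and dendritic cells, fell by 3.08 ± 0.32 and 1.91 ± 0.32 (limma adjusted p = 2.86e-05 and 0.00191). Of 8 megakaryocyte and platelet genes listed, 5 were measured. Itga2b rose by 0.70 ± 0.18 and Ppbp fell by 1.5 ± 0.29 in DKO against WT (limma adjusted p = 0.00854 and 0.00154). That is 1 of 5 in each direction, near the 20.6% of all genes called higher and the 17.6% called lower.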
